A study of Danio rerio with 16 samples.

Results

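Ribosome biogenesis factors are the proteins that transcribe, modify, cut and fold ribosomal RNA and assemble the ribosome's subunits, and that do not remain in the finished particle. The 56 factors described here are the genes of the liver count table whose symbol is on a list of such factors. All 56 were found once among the 32058 features, and all 56 passed the filter on low counts that left 17799 genes for testing. The list was drawn up by gene function, without a threshold on any measured value, but with earlier results of these data known.

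RNA was sequenced from dissected livers of zebrafish larvae in 8 groups of 2 libraries, with 30 larvae pooled per library. Wild-type larvae were collected at 4 and 5 days post fertilization (dpf) under a treatment labelled Normal, at 6 dpf fasted, at 6 dpf fasted with ethanol (the sources used here state neither dose nor duration), at 7 dpf fasted and at 7 dpf fed. A further 7 dpf fed wild-type group carries the label FedVentral, which is not explained further in the labels and is called 7 dpf ventral here. The remaining 6 dpf fasted group carried Tg(fabp10a:GCaMP6s), a calcium indicator under the hepatocyte promoter fabp10a, and is called 6 dpf GCaMP. The labels do not say whether the pools of a group came from separate clutches, so the p-values measure the spread between these libraries, which may be technical.

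Ribosome assembly begins in the nucleolus, where RNA polymerase I transcribes one long precursor of most ribosomal RNAs. Small nucleolar ribonucleoproteins (snoRNPs) guide methylation and pseudouridylation of that precursor, while a large complex called the small subunit processome, built from UTP-A, UTP-B, the U3 snoRNP and many single factors, forms on its first part. Other proteins, including the PeBoW complex of pes, bop1 and wdr12, process the precursor of the large subunit. These genes are known to be regulated together with cell growth and nutrient supply, and Myc transcription factors and TOR signalling are known regulators of the pathway. Zebrafish mutants of several factors, bms1 among them, are known for small digestive organs.

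The libraries held 18995692 to 28033476 counts, and 0.174% to 0.481% of these fell on the 56 factors. Replicates correlated with r between 0.977 and 0.986 over the log2 values of all genes and between 0.98 and 0.994 over the 56 factors. The 12 listed hepatocyte genes, fabp10a and tfa among them, took a mean of 4.88% to 11.9% of counts in the 8 groups. EGFP, counted as a feature of its own, had 136106 and 43968 counts in the 6 dpf GCaMP libraries, 38 and 38 in the 6 dpf fasted wild-type libraries and 0 in the other 12. In pooled tissue, fewer cells of a type and less RNA per cell cannot be told apart.

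The summed level of the 56 factors was highest in fasted larvae at 6 dpf and lowest in fed larvae. Levels are given as CPM, the counts scaled to a common library size after normalization by the trimmed mean of M-values (TMM), and are not per length, so they are compared between samples and not between genes. The factors summed to 2789 ± 7.88 CPM (SD, n = 2 in this and each later group) at 4 dpf, 2622 ± 62 at 5 dpf, 5184 ± 229 at 6 dpf fasted and 4369 ± 35.2 at 7 dpf fasted. The sums were 4499 ± 271 in 6 dpf GCaMP, 3301 ± 261 in 6 dpf ethanol, 1848 ± 154 in 7 dpf fed and 1863 ± 115 in 7 dpf ventral. The libraries of each fed group lay below every other library in this sum. Without ddx21, gtpbp4 and nop53 this did not hold. The other 53 factors summed to 1517 and 1742 CPM in 7 dpf fed, 1708 and 1520 CPM in 7 dpf ventral and 1736 and 1636 CPM at 5 dpf. As a share of all counts, without TMM, the 56 factors took means of 0.325% at 4 dpf, 0.23% at 5 dpf and 0.48% at 6 dpf fasted. The means were 0.419% in 6 dpf ethanol, 0.4% at 7 dpf fasted, 0.394% in 6 dpf GCaMP, 0.195% in 7 dpf fed and 0.183% in 7 dpf ventral. The place of 6 dpf ethanol among the fasted groups thus depends on the scaling. Of the 56 factors, 30 had their highest group mean at 6 dpf fasted, a share of 53.6% against 12.6% of all tested genes, and a further 12 had it in 6 dpf ethanol. The lowest mean fell at 5 dpf for 16 factors, in 7 dpf fed for 14, in 7 dpf ventral for 14, at 7 dpf fasted for 11 and in 6 dpf ethanol for 1.

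**Figure D1:**
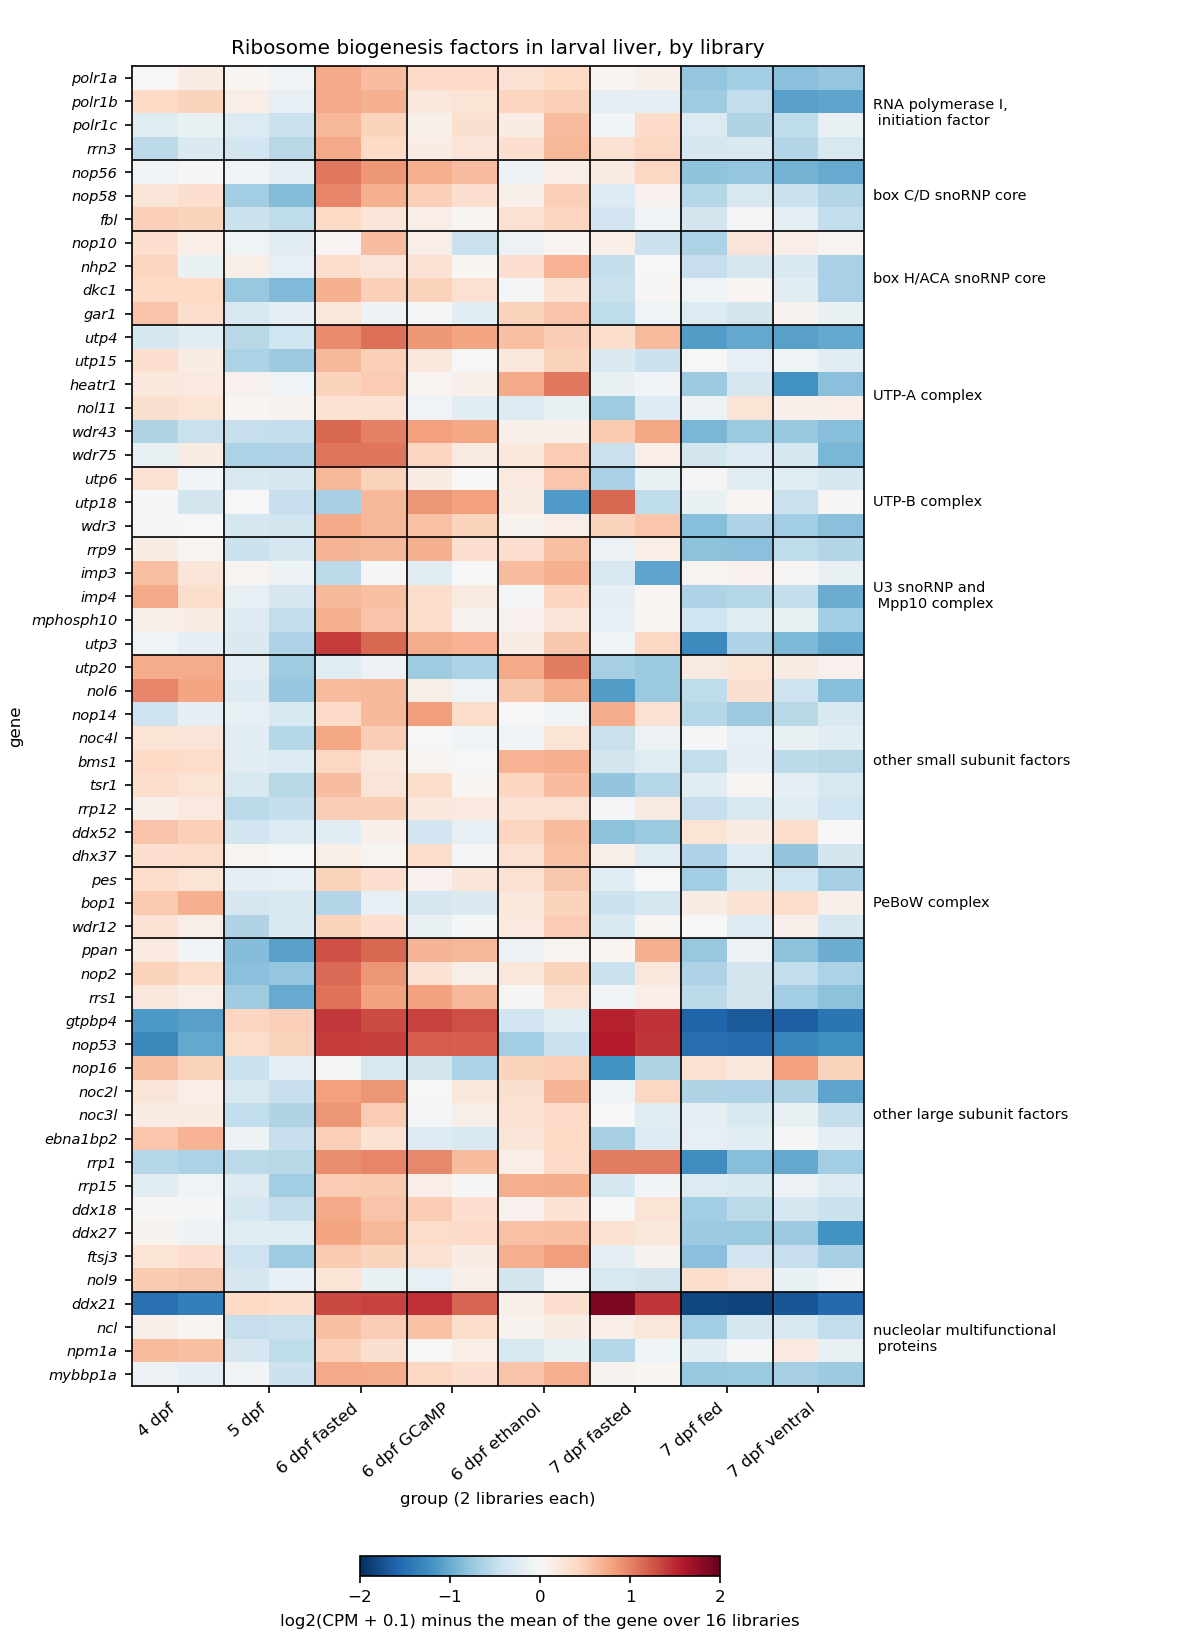
Level of each of the 56 factors (rows, ordered by role) in each of the 16 libraries (columns, 2 per group), as log2(CPM + 0.1) minus the gene's own mean over the 16 libraries. Red columns at 6 dpf fasted and blue columns at 5 dpf and in both fed groups run through most roles. Ddx21, gtpbp4 and nop53 stand out with their own pattern.

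From 4 to 5 dpf, most factors were lower and 3 were much higher. A gene is said to have risen or fallen when edgeR's quasi-likelihood test gave a Benjamini-Hochberg adjusted p under 0.1 over all tested genes and the fold change was 2 or more, which are the limits named in the study's design. By this rule 8 factors fell and 3 rose, beside 7.42% of all tested genes that fell and 7.44% that rose. The median log2 fold change was -0.50 over the 56 factors and 0.06 over all genes. Both 5 dpf libraries lay below both 4 dpf libraries for 45 factors and above them for 4, while 30.7% and 34.5% of all genes did so. With scaling by library size alone, which moved the median of all genes to -0.34, 25 factors fell and 3 rose.

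The factors that fell from 4 to 5 dpf came from several steps of the pathway. Nop58, a core protein of the box C/D snoRNPs that guide methylation, read 72.3 and 77.0 CPM at 4 dpf and 37.8 and 33.6 CPM at 5 dpf, a log2 fold change of -1.06 ± 0.15 (standard error). Dkc1, the pseudouridine synthase of the box H/ACA snoRNPs, read 56.9 in each 4 dpf library and 25.4 and 23.4 CPM at 5 dpf (log2 fold change -1.22 ± 0.17, adjusted p = 2.15e-05). For both genes the groups were separated by more than the spread between replicates. Utp20, a component of the small subunit processome, had the smallest p of the 8 and read 39.8 and 40.04 CPM at 4 dpf and 20.9 and 14.4 CPM at 5 dpf (log2 fold change -1.18 ± 0.15, adjusted p = 1.05e-05). Nol6, another small subunit factor, fell by 1.39 ± 0.24 on the log2 scale. Among large subunit factors, nop2, a ribosomal RNA methyltransferase, fell by 1.23 ± 0.17, rrs1, an assembly factor known from yeast, fell by 1.04 ± 0.16, and ppan fell by 1.05 ± 0.22. Npm1a, a form of the abundant nucleolar chaperone nucleophosmin, read 224 and 219 CPM at 4 dpf and 114 and 102 CPM at 5 dpf (log2 fold change -1.04 ± 0.15). RNA polymerase I subunits showed small differences, and none of the 4 genes of that role passed both limits. Calls of nop58, utp20, ppan, rrs1 and npm1a were lost without replicate 2 of 5 dpf, where 3 factors fell.

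The 3 factors that rose from 4 to 5 dpf were ddx21, gtpbp4 and nop53. Ddx21 is an RNA helicase of the nucleolus, gtpbp4 is a GTPase of large subunit assembly, and nop53 is an assembly factor that recruits the RNA exosome to the large subunit precursor. Ddx21 read 96.05 and 106 CPM at 4 dpf and 358 and 345 CPM at 5 dpf, a log2 fold change of 1.80 ± 0.15. The log2 fold change was 1.57 ± 0.11 for gtpbp4 and 1.57 ± 0.12 for nop53, and in all 3 genes both 5 dpf libraries lay above both 4 dpf libraries. Dividing cell markers moved with this comparison, as all 15 tested features of that list fell and their share of counts went from 0.0779% ± 0.00945 at 4 dpf to 0.0148% ± 0.000159 at 5 dpf. Of the other lists, 5 of 10 skin genes, 5 of 11 pancreas genes and 7 of 9 red blood cell genes rose. Of 12 hepatocyte genes 3 rose, as did 1 of 7 biliary genes. Of 7 intestine genes 2 rose and 2 fell, and 1 of 8 macrophage and leukocyte genes fell. Of 9 endothelial genes 0 were called, with 8 higher and 0 lower at an unadjusted p under 0.05 in edgeR. Their part in the result was not tested.

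Between 5 dpf and 6 dpf fasted, 24 of the 56 factors rose and 0 fell, the largest count of called factors among the 7 comparisons. Among all tested genes, 7.98% rose and 10.2% fell. The median log2 fold change was 0.97 over the 56 factors and -0.01 over all genes. Both 6 dpf fasted libraries lay above both 5 dpf libraries for 50 factors and below them for 0, against 32.2% and 34% of all genes. At an unadjusted p under 0.05 in edgeR, 44 factors were higher and 0 lower, and DESeq2 also called 0 as fallen. The share of all genes at the unadjusted limit was not counted.

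Large subunit factors held the largest rises, with 8 of 15 called. Ppan, a factor of large subunit assembly also known as Peter Pan, read 14.3 and 12.3 CPM at 5 dpf and 64.7 and 58.6 CPM at 6 dpf fasted, a 4.63-fold difference (log2 fold change 2.21 ± 0.22, adjusted p = 1.75e-06). Nop2 read 18.6 and 19.4 CPM at 5 dpf and 73.3 and 61.6 CPM at 6 dpf fasted (log2 fold change 1.83 ± 0.18). Rrs1 read 12.4 and 10.04 CPM at 5 dpf and 43.3 and 35.3 CPM at 6 dpf fasted (log2 fold change 1.81 ± 0.16). In each of these genes the lower 6 dpf library was far above the higher 5 dpf library. Rrp1, noc2l, noc3l, the RNA helicase ddx18 and the methyltransferase ftsj3 rose by log2 fold changes between 1.04 and 1.5. Nop16 was the member of this role with the smallest difference, 0.14 ± 0.19, and its libraries overlapped.

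Of the small subunit processome, at least 1 factor rose in each of the 3 complexes listed. In UTP-A, the complex that binds the start of the nascent precursor, 4 of 6 rose. Wdr43 had the smallest p of all 24 factors and read 73.6 and 73.1 CPM at 5 dpf and 226 and 204 CPM at 6 dpf fasted (log2 fold change 1.55 ± 0.12, adjusted p = 2.09e-08). Utp4, whose human form is linked to childhood cirrhosis, read 18.8 and 20.9 CPM at 5 dpf and 53.1 and 59.6 CPM at 6 dpf fasted (log2 fold change 1.51 ± 0.13, adjusted p = 8.44e-08). Wdr75 rose by 1.7 ± 0.2 and utp15 by 1.25 ± 0.16. In UTP-B, wdr3 rose by 1.07 ± 0.11, while utp18 had few reads, down to 18 counts in a library, and its libraries overlapped. Of the U3 snoRNP and Mpp10 complex, utp3 rose by 1.73 ± 0.21, rrp9 by 1.05 ± 0.17 and mphosph10 by 1.01 ± 0.16. Imp3, which binds U3 snoRNA, had a log2 fold change of -0.24 ± 0.26 and did not pass. Among 9 other small subunit factors, nol6, noc4l and rrp12 rose.

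The snoRNP cores and RNA polymerase I differed among themselves. Nop58 read 37.8 and 33.6 CPM at 5 dpf and 121 and 100.2 CPM at 6 dpf fasted (log2 fold change 1.63 ± 0.16), and nop56, its partner in box C/D snoRNPs, rose by 1.1 ± 0.12. Fibrillarin (fbl), the methyltransferase of the same particles, had a log2 fold change of 0.79 ± 0.14, under the fold limit. Of the box H/ACA proteins, dkc1 rose by 1.42 ± 0.17, and nop10, nhp2 and gar1 had log2 fold changes between 0.31 and 0.51. Rrn3, the factor that makes RNA polymerase I able to initiate, rose by 1.06 ± 0.16. Polr1a, the largest subunit of that polymerase, read 74.2 and 68.9 CPM at 5 dpf and 122 and 110.2 CPM at 6 dpf fasted, a log2 fold change of 0.70 ± 0.11 below the limit. All 3 PeBoW genes stayed under the limit, with log2 fold changes from -0.04 for bop1 to 0.84 for wdr12. Of the multifunctional nucleolar proteins, nucleolin (ncl) rose, from 301 and 305 CPM to 634 and 587 CPM (log2 fold change 1.01 ± 0.13).

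**Figure D2:**
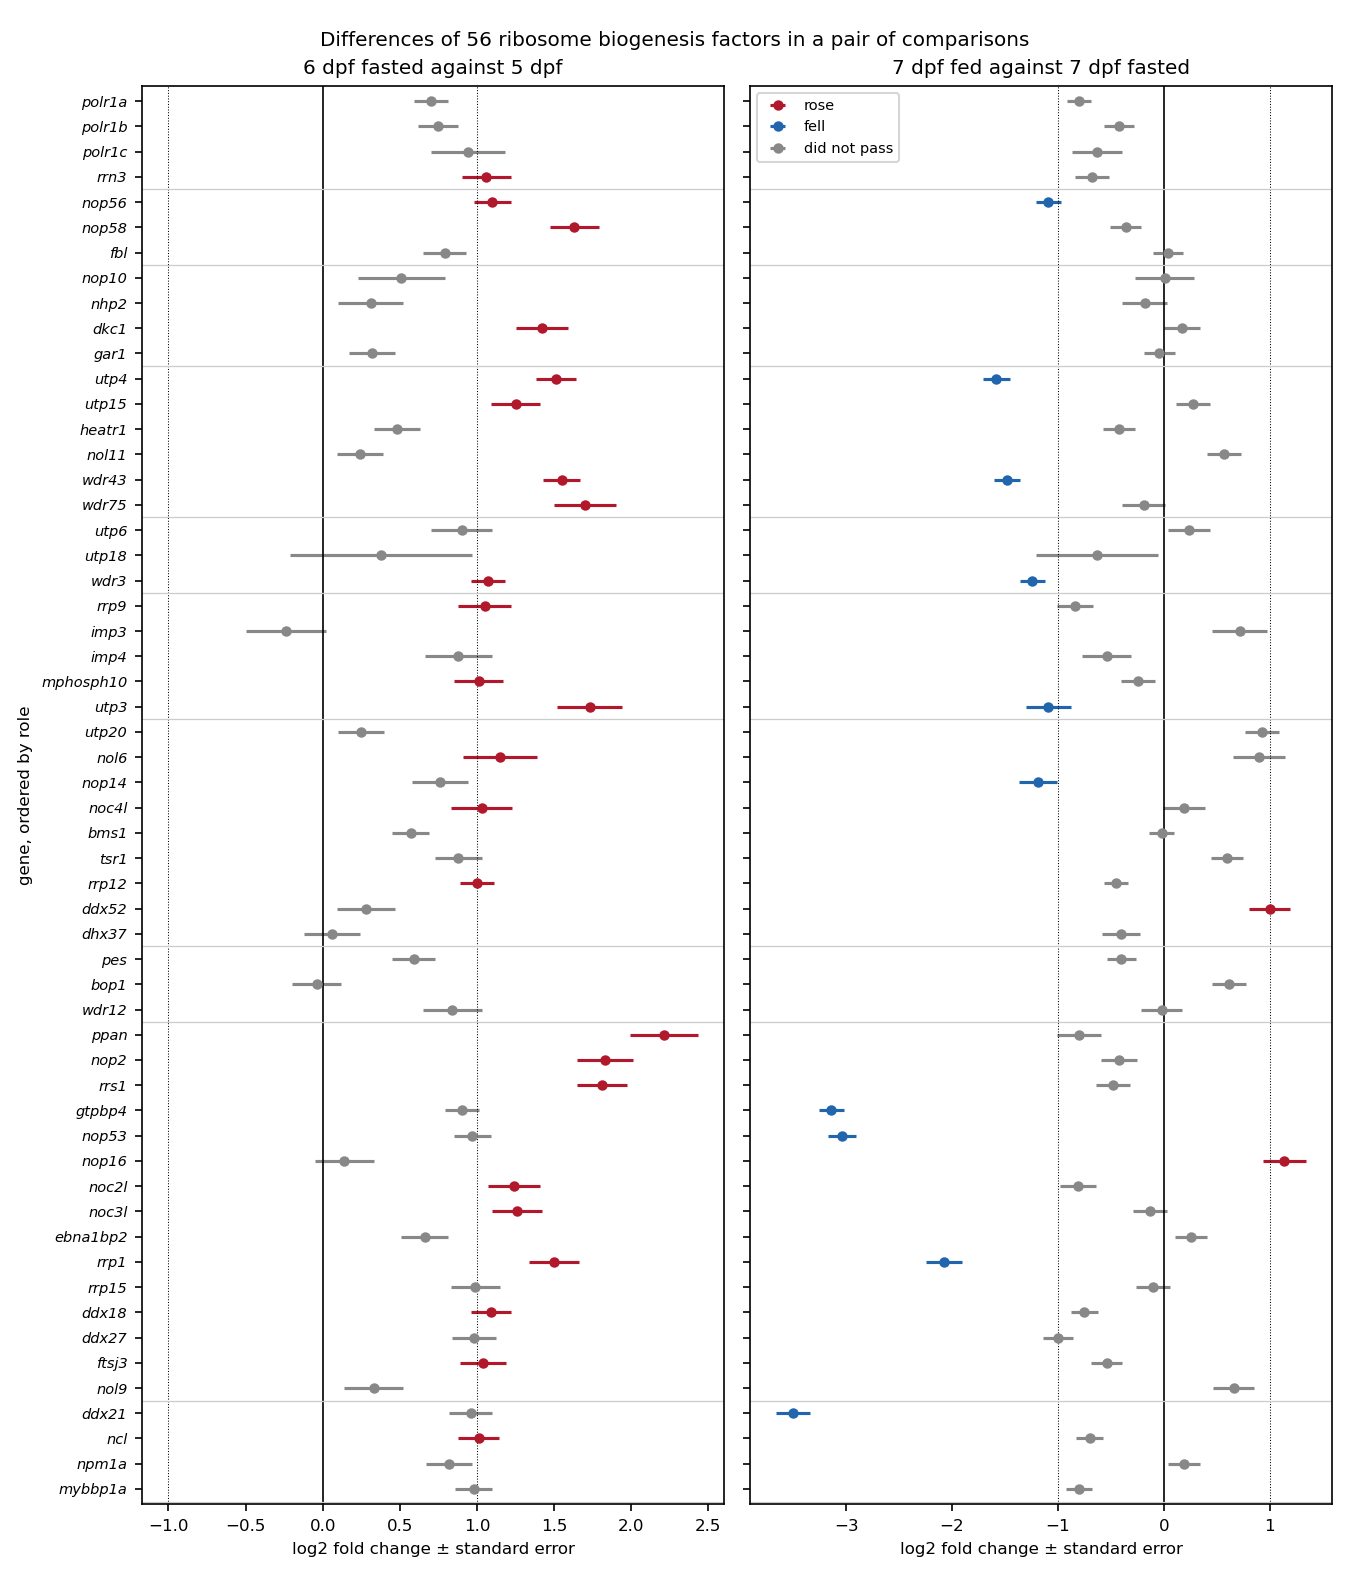
Log2 fold change of each of the 56 factors with its standard error, at 6 dpf fasted against 5 dpf (left) and at 7 dpf fed against 7 dpf fasted (right), from edgeR with 2 libraries per group. Red points rose and blue points fell past an adjusted p of 0.1 and a fold change of 2 (dotted lines); on the left 24 points are red and none is blue, and on the right ddx21, gtpbp4 and nop53 lie lowest.

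Feeding state and age changed together between the labels of these groups, as the 5 dpf group is labelled Normal and the 6 dpf group fasted, so the effects of age and fasting cannot be told apart. Skin markers moved with the comparison. Of 10 listed skin genes 8 rose, none of the 10 was at 0 in the 6 dpf fasted libraries, and their summed share of counts was 0.025% to 0.0564% at 5 dpf and 0.335% to 0.454% at 6 dpf fasted. Pancreas markers took 0.115% to 0.215% at 5 dpf and 0.257% to 0.318% at 6 dpf fasted. The 12 hepatocyte markers took means of 11.3% at 5 dpf and 7.11% at 6 dpf fasted, with 1 that fell and 0 that rose. Biliary markers took 0.153% ± 0.0102 and 0.247% ± 0.00763 in the same order, and 1 of 7 rose. Intestine markers took 0.0319% ± 0.000301 and 0.0159% ± 0.00558, and 2 of 7 fell. The share of dividing cell markers was lower at 6 dpf fasted, at 0.00625% ± 0.000191, and 12 of its 15 features fell, as did all 9 red blood cell markers. The part of these lists in the result was not tested.

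The 3 later groups that had not been fed also lay mostly above 5 dpf, each read against the same pair of 5 dpf libraries. Both libraries exceeded both 5 dpf libraries for 43 of 56 factors in 6 dpf GCaMP, for 48 in 6 dpf ethanol and for 31 at 7 dpf fasted. The corresponding shares of all tested genes were 29.7%, 36.9% and 33.2%.

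Between 6 and 7 dpf under fasting, most factors were lower again, and 5 of them fell while 0 rose. Among all tested genes, 4.12% fell and 2.69% rose. The median log2 fold change was -0.61 over the factors and -0.03 over all genes, and both 7 dpf libraries lay below both 6 dpf libraries for 44 factors, against 29.4% of all genes. In edgeR, 1 factor was higher at an unadjusted p under 0.05, and DESeq2 called 0 as risen.

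Nol6 read 26.4 and 26.5 CPM at 6 dpf and 7.71 and 10.1 CPM at 7 dpf, a log2 fold change of -1.57 ± 0.25 (adjusted p = 0.000565). Tsr1, a late small subunit factor, read 56.9 and 44.4 CPM at 6 dpf and 21.6 and 24.97 CPM at 7 dpf (log2 fold change -1.12 ± 0.15, adjusted p = 8.06e-05). Wdr75 fell by 1.2 ± 0.2, utp3 by 1.1 ± 0.2 and nop2 by 1.08 ± 0.17. Of these only nol6 kept its call under every alternative setting. Without replicate 1 of 6 dpf fasted 2 factors fell, as they did without replicate 1 of 7 dpf fasted, and without replicate 2 of the same groups 11 and 13 fell. Nol6, wdr75, utp3 and nop2 had also risen between 5 and 6 dpf, but both comparisons use the 6 dpf fasted libraries. The share of skin markers was lower at 7 dpf fasted, 0.0829% to 0.0876%, with 5 of 10 genes that fell, and that of endothelial markers was higher, 0.0717% to 0.095% against 0.0405% to 0.0466%, with 2 of 9 genes that rose. Of other lists, 3 of 9 red blood cell genes and 2 of 7 intestine genes fell, and the pancreas share was 0.507% to 1.03% against 0.257% to 0.318%, with 0 of 11 genes called and 1 higher at an unadjusted p under 0.05 in edgeR. Their part in the result was not tested.

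Fed larvae at 7 dpf had far lower levels of a small set of factors than fasted larvae of the same age, while most others did not pass both limits. In this comparison 10 factors fell and 2 rose, beside 16.8% and 20.7% of all tested genes. The share of the 56 factors that fell was therefore near that of all genes. At any fold, 39 of the 56 factors had an adjusted p under 0.1. In edgeR 30 were lower and 9 higher at an unadjusted p under 0.05. The matching shares of all genes were not counted. The median log2 fold change was -0.41 over the factors and 0.00 over all genes. Both fed libraries lay below both fasted libraries for 30 factors and above them for 11, against 37% and 37.8% of all genes. With scaling by library size, which moved the median of all genes to 0.19, 7 factors fell and 4 rose, and nop56, utp3 and nop14 were among those no longer called.

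The largest differences were those of ddx21, gtpbp4 and nop53. Ddx21 read 989 and 730.1 CPM in the fasted and 76.9 and 74.9 CPM in the fed libraries, an 11.3-fold difference (log2 fold change -3.50 ± 0.16, adjusted p = 1.88e-12). Gtpbp4 read 706 and 662 CPM when fasted and 79.6 and 75.9 CPM when fed (log2 fold change -3.14 ± 0.12, adjusted p = 3.66e-13). Nop53 read 565 and 507 CPM when fasted and 65.7 and 64.8 CPM when fed (log2 fold change -3.04 ± 0.13, adjusted p = 1.25e-12). In each gene the lower fasted library was several times the higher fed library. By p, gtpbp4 ranked 29 among the 17799 tested genes, nop53 ranked 61 and ddx21 ranked 83.

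Rrp1, a large subunit factor, followed with 39.2 and 39.3 CPM in the fasted and 7.99 and 10.54 CPM in the fed libraries (log2 fold change -2.08 ± 0.17, adjusted p = 4.98e-09). Of the small subunit processome, utp4 fell by 1.58 ± 0.13, wdr43 by 1.48 ± 0.12, wdr3 by 1.24 ± 0.12, nop14 by 1.19 ± 0.18 and utp3 by 1.09 ± 0.21. Nop56 fell by 1.09 ± 0.12, while its partners differed little, with log2 fold changes of -0.36 for nop58 and 0.04 for fbl. The 4 box H/ACA proteins ranged from -0.18 to 0.17, and 0 of them reached an adjusted p under 0.1 at any fold. All 4 RNA polymerase I genes were lower in fed larvae, with log2 fold changes from -0.80 to -0.42, each with an adjusted p under 0.1 but under the fold limit. Of the 10 factors that fell with feeding, 6 were among the 24 that rose from 5 dpf to 6 dpf fasted, in libraries that the comparisons do not share: nop56, utp4, wdr43, wdr3, utp3 and rrp1. As 24 of all 56 factors rose in that comparison, part of such an overlap would arise without a link. The overlap was not tested, and its share over all tested genes was not counted.

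The 2 factors that rose with feeding were nop16, a large subunit factor, and ddx52, an RNA helicase of the small subunit. Nop16 read 6.38 and 9.64 CPM in the fasted and 18.2 and 17 CPM in the fed libraries (log2 fold change 1.14 ± 0.2, adjusted p = 7.57e-05). Ddx52 read 5.05 and 5.33 CPM when fasted and 10.9 and 9.93 CPM when fed, at the fold limit itself (log2 fold change 1 ± 0.19). Neither gene was called without replicate 1 of 7 dpf fasted, and ddx52 was also lost under other settings. Utp20 (log2 fold change 0.93 ± 0.16) and nol6 (0.9 ± 0.25) were higher in fed larvae without reaching the fold limit.

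Several cell type markers moved with feeding. All 15 dividing cell features rose, from 0.00831% ± 0.00109 to 0.104% ± 0.00544 of counts, and all 9 red blood cell markers rose, from 0.00126% ± 0.000838 to 0.0603% ± 0.00973. Endothelial markers took 0.0833% ± 0.0164 in fasted and 0.0223% ± 0.000187 in fed libraries, and 8 of 9 fell. Pancreas markers took 0.507% to 1.03% in fasted and 0.2% to 0.216% in fed libraries, skin markers 0.0829% to 0.0876% and 0.0135% to 0.0201%, and the 12 hepatocyte markers means of 5.53% and 11.7%. Of these lists 5 of 11 pancreas genes and 5 of 10 skin genes fell, 1 skin gene rose, 2 hepatocyte genes rose and 2 fell, and 5 of 8 macrophage and leukocyte genes rose. Intestine markers took 0.00973% ± 0.00228 in fasted and 0.0665% ± 0.00911 in fed libraries, and 3 of 7 rose and 1 fell. Their part in the results for the 56 factors was not tested.

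**Figure D3:**
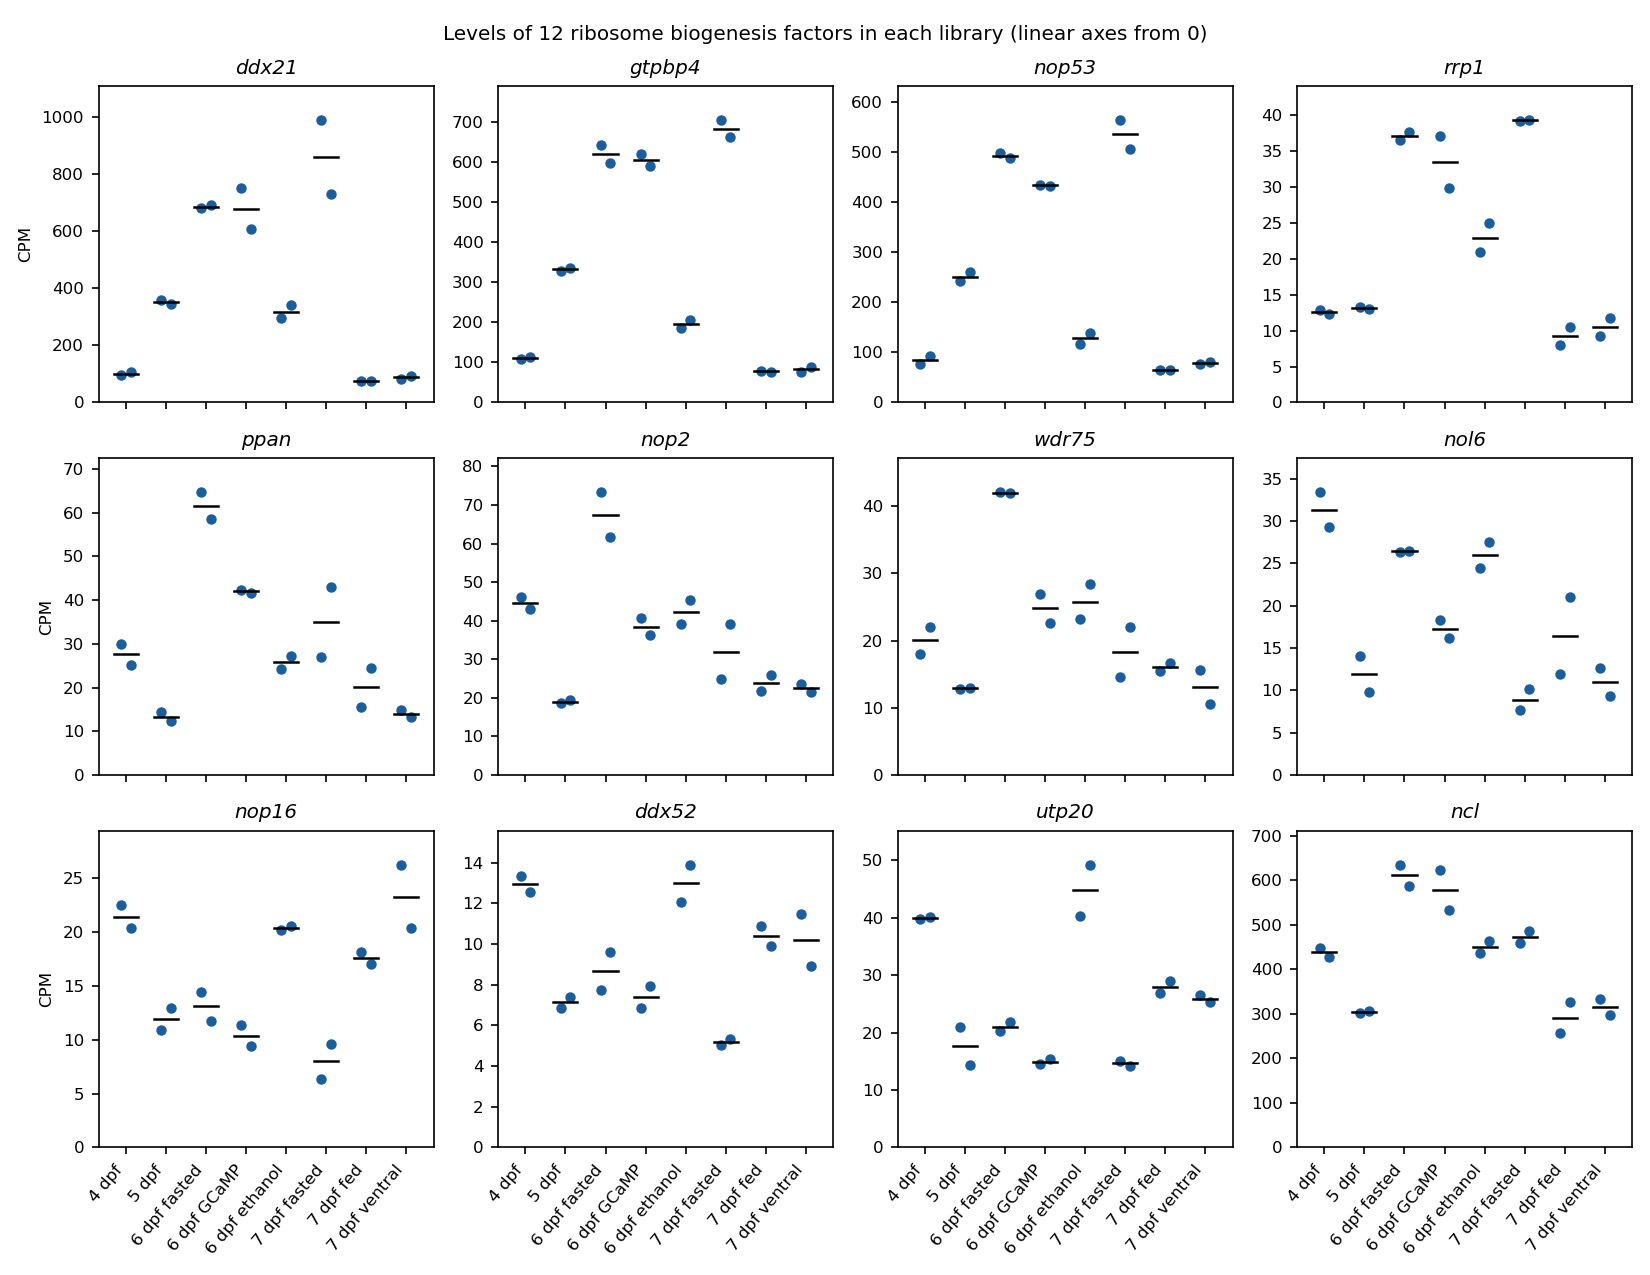
CPM of 12 factors in each of the 16 libraries (points, 2 per group) with the group mean (line), each panel on its own linear axis from 0. Ddx21, gtpbp4 and nop53 are high in the fasted groups without ethanol and lower at 4 dpf, in 6 dpf ethanol and in both fed groups, whereas the means of nop16, ddx52 and utp20 are lowest at 7 dpf fasted.

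Against fasted larvae of the same age, a few factors were lower past both limits with ethanol at 6 dpf, and 1 was higher. In this comparison 4 factors fell and 1 rose, beside 11.1% and 11.8% of all tested genes, which are larger shares than those of the factors. At any fold, 33 of the 56 factors had an adjusted p under 0.1. In edgeR 25 were lower and 8 higher at an unadjusted p under 0.05, and the matching shares of all genes were not counted. The median log2 fold change was -0.31 over the factors and 0.00 over all genes. With scaling by library size alone 5 factors rose and 2 fell, and the medians were 0.14 and 0.45, so the sign of the factors' median depends on the scaling, though it lay below that of all genes under both. Both ethanol libraries lay below both fasted libraries for 32 factors and above them for 11, against 34.2% and 35.7% of all genes. Against the same fasted libraries, the 6 dpf GCaMP group, which had no ethanol, also had a median of -0.31. Its libraries lay below for 39 factors and above for 1.

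Nop53 read 499 and 488 CPM in the fasted and 117 and 139 CPM in the ethanol libraries (log2 fold change -1.95 ± 0.12, adjusted p = 1.1e-09). Gtpbp4 read 644 and 599 CPM in the fasted and 185 and 205 CPM in the ethanol libraries (log2 fold change -1.67 ± 0.11, adjusted p = 2.22e-09). Ddx21 read 679 and 691 CPM in the fasted and 296 and 341 CPM in the ethanol libraries (log2 fold change -1.11 ± 0.14). In all 3 genes both ethanol libraries were well below both fasted libraries. With scaling by library size ddx21 had a log2 fold change of -0.65 and ppan one of -0.80, and neither was called. Ppan read 64.7 and 58.6 CPM in the fasted and 24.3 and 27.3 CPM in the ethanol libraries (log2 fold change -1.26 ± 0.21). Utp20 rose, from 20.3 and 21.8 CPM to 40.3 and 49.2 CPM (log2 fold change 1.09 ± 0.15, adjusted p = 1.46e-05), and this call was lost without replicate 2 of 6 dpf ethanol, where 0 factors rose. Without replicate 2 of 6 dpf fasted, 7 factors fell and 2 rose.

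Ethanol libraries also differed in their markers. Of 10 skin genes 9 fell, to 0.0451% to 0.0555% of counts from 0.335% to 0.454%. All 11 pancreas genes fell, to 0.00987% to 0.102% from 0.257% to 0.318%. Of 12 hepatocyte genes 9 fell and 1 rose, with means of 4.88% of counts against 7.11%. Biliary markers took 0.377% ± 0.00635 against 0.247% ± 0.00763. Dividing cell markers took 0.0156% ± 0.000991 against 0.00625% ± 0.000191, and 5 of 15 features rose. Intestine markers took 0.0077% ± 0.000324 against 0.0159% ± 0.00558, and 1 of 7 rose and 2 fell. The part of these differences in the result was not tested.

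Ddx21, gtpbp4 and nop53 are set out together because of their shared calls, a choice made after their values were seen. They are 3 of the 10 factors that fell with feeding and 3 of the 4 that fell with ethanol. These comparisons have no library in common, but the 3 were picked for these calls, so their agreement is not separate support. Their summed level was 297.6 ± 21.2 CPM at 4 dpf, 936 ± 9.02 at 5 dpf, 1800 ± 30.6 at 6 dpf fasted and 2079 ± 254 at 7 dpf fasted. It was 1717 ± 126 CPM in 6 dpf GCaMP, 641.7 ± 61.7 in 6 dpf ethanol, 218.9 ± 4.67 in 7 dpf fed and 249 ± 18 in 7 dpf ventral. On the TMM scale the order thus ran from fed through ventral, 4 dpf, ethanol and 5 dpf to the fasted groups without ethanol. Libraries of 6 dpf GCaMP and 6 dpf fasted overlapped, and those of the other groups did not. TMM factors were 1.3 and 1.25 in ethanol against 0.89 and 0.864 at 5 dpf. They were 1 and 1.1 in fed against 0.962 and 1 in ventral. The separation of ethanol from 5 dpf and of fed from ventral therefore depends on this scaling. The other 53 factors summed to 2492 ± 29 CPM at 4 dpf, 1686 ± 71 at 5 dpf, 3383 ± 198 at 6 dpf fasted, 2660 ± 200 in 6 dpf ethanol, 2290 ± 219 at 7 dpf fasted and 1629 ± 159 in 7 dpf fed. For those 53 the fasted and fed sums at 7 dpf were closer than for the 3, which follows in part from how the 3 were chosen. The sum of the 53 at 4 dpf stood above that at 5 dpf, and the 5 dpf and 7 dpf fed libraries overlapped.

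The 6 dpf GCaMP larvae, which share age and fasting with the 6 dpf fasted wild type, had 0 factors that rose and 0 that fell, beside 0.714% and 0.247% of all tested genes. The factors were slightly lower as a set, with a median log2 fold change of -0.31 against 0.00 over all genes. Both GCaMP libraries lay below both wild-type libraries for 39 factors and above them for 1, against 22.1% and 22.3% of all genes. At an unadjusted p under 0.05 in edgeR 28 factors were lower and 0 higher, 7 of these had an adjusted p under 0.1 below the fold limit, and DESeq2 called 0. The matching shares of all genes at these limits were not counted. The 7 were polr1b, wdr75, noc4l, nop2, noc2l, noc3l and ebna1bp2. Nop2 had the largest of these differences and read 40.8 and 36.2 CPM in GCaMP against 73.3 and 61.6 CPM in wild type (log2 fold change -0.81 ± 0.17, adjusted p = 0.0193). Pancreas markers took 0.734% to 0.837% of counts in GCaMP against 0.257% to 0.318%, and their part in the result was not tested.

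The ventral group differed from the 7 dpf fed group in 0 factors in either direction, beside 0.5% of all tested genes that rose and 0.663% that fell. In edgeR 2 factors were higher and 5 lower at an unadjusted p under 0.05, 0 had an adjusted p under 0.1 at any fold, and DESeq2 called 0. The log2 fold changes ran from -0.59 to 0.41 with a median of -0.06, and the libraries overlapped for 35 of the 56 factors. Ddx21 read 83.1 and 92.7 CPM in ventral, gtpbp4 77.1 and 88.2 CPM, and nop53 76.1 and 80.9 CPM, near their values in the fed group.

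**Figure D4:**
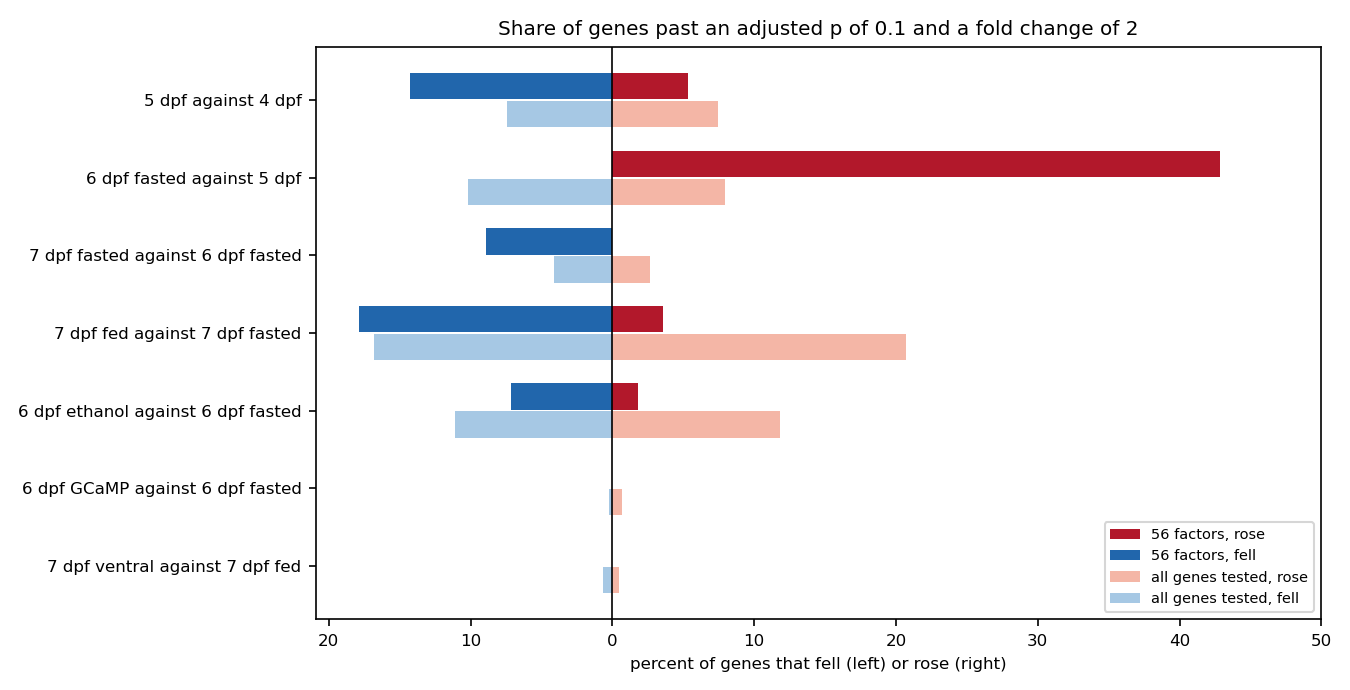
Percent of the 56 factors (dark bars) and of all 17799 tested genes (light bars) that rose (right) or fell (left) past an adjusted p of 0.1 and a fold change of 2 in each of 7 comparisons. The rise of 24 factors at 6 dpf fasted against 5 dpf is the longest bar, and with feeding and ethanol the factors' bars are no longer than those of all genes, apart from the factors that fell with feeding, which lie just above.

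A wider list of the pathway, 169 symbols of which 143 were in the table and 142 were tested, showed its largest count in the same comparison. From 5 dpf to 6 dpf fasted 46 of these genes rose and 3 fell, with a median log2 fold change of 0.69. Of all tested genes, 7.98% rose and 10.2% fell in that comparison. The gene twistnb, which encodes a subunit of RNA polymerase I, rose from 7.87 ± 0.581 to 30.5 ± 0.182 CPM (log2 fold change 1.95 ± 0.17), and cd3eap, another subunit, rose by 1.27 ± 0.18. Of small subunit factors, nob1, the nuclease of the last cut, rose by 1.48 ± 0.14 and esf1 by 1.46 ± 0.15. Of listed large subunit factors, sdad1 rose by 1.51 ± 0.13. By contrast wdr18 and senp3b, whose proteins belong to the same late assembly complex, fell by 1.21 ± 0.27 and 1.45 ± 0.25. The gene dnttip2, also on the wider list, rose by 1.87 ± 0.18. The snoRNP assembly factors nufip1 and znhit6 rose by 2.22 ± 0.29 and 1.87 ± 0.35. Of the RNA exosome, which trims ribosomal RNA precursors, exosc1 rose by 1.1 ± 0.16 and exosc8 by 1.81 ± 0.28. The RNase MRP and P proteins rpp30 and rpp38 rose by 1.45 ± 0.33 and 1.17 ± 0.29, and rpp25a, which had few counts at 5 dpf and 0 CPM in both 6 dpf fasted libraries, was the remaining gene that fell.

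In the other comparisons the wider list held fewer called genes. It counted 5 genes that rose and 10 that fell from 4 to 5 dpf, 0 and 14 from 6 to 7 dpf fasted, 15 and 29 with feeding and 5 and 11 with ethanol. From 4 to 5 dpf 7.44% of all tested genes rose and 7.42% fell, so the 5 lay under that share and the 10 near it. From 6 to 7 dpf fasted 2.69% of all tested genes rose and 4.12% fell, so the 14 lay above that share. Of all tested genes, 20.7% rose and 16.8% fell with feeding, and 11.8% rose and 11.1% fell with ethanol. With ethanol both counts of this list of 142, and with feeding the count that rose, lay under the share of all genes. The 29 that fell with feeding lay above that share. The wider list counted 0 in either direction for GCaMP and for ventral. At an unadjusted p under 0.05 in edgeR, 1 gene was higher and 44 lower for GCaMP, and 7 higher and 10 lower for ventral. From 6 to 7 dpf, 2 genes were higher at that limit. In that comparison the genes with the smallest p of their lists included urb2 (log2 fold change -1.27 ± 0.17), dimt1l, a methyltransferase of the small subunit RNA (-1.15 ± 0.21), and naf1, a box H/ACA assembly factor (-1.36 ± 0.27).

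The comparisons of 5 with 4 dpf, of feeding and of ethanol have no library in common. Some genes of the wider list were called in each, and those set out here were picked for that. Of these, rsl24d1, which has a role in large subunit assembly in yeast, rose from 82.2 ± 3.75 to 272 ± 9.04 CPM between 4 and 5 dpf. The level of rsl24d1 fell from 545 ± 35.3 to 80.7 ± 12.4 CPM with feeding and from 464 ± 48.2 to 195 ± 13.8 CPM with ethanol. The small subunit factor pno1 had log2 fold changes of 1.21 ± 0.12 from 4 to 5 dpf, -1.99 ± 0.12 with feeding and -1.12 ± 0.12 with ethanol. The exosome gene exosc1 rose by 1.53 ± 0.17 from 4 to 5 dpf and fell by 2.95 ± 0.18 with feeding and by 1.96 ± 0.16 with ethanol. The opposite calls were those of wdr18, with log2 fold changes of -1.43 ± 0.24, 2.38 ± 0.26 and 1.98 ± 0.26 in the same order, and of polr2h, a subunit shared by RNA polymerases, with -1.32 ± 0.26, 1.82 ± 0.26 and 1.13 ± 0.25.

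With feeding, further genes of the wider list fell, among them twistnb by 1.99 ± 0.17, rcl1 by 2.17 ± 0.18, rsl1d1 by 2.41 ± 0.12, exosc3 by 1.79 ± 0.38, rpp30 by 1.29 ± 0.34, and the snoRNP assembly factors shq1 by 1.26 ± 0.22 and nufip1 by 1.36 ± 0.29. Others rose, among them the snoRNP assembly ATPases ruvbl2 by 2.17 ± 0.23 and ruvbl1 by 1.06 ± 0.19, the UTP-B gene pwp2h by 1.33 ± 0.14, nom1 by 1.29 ± 0.18, and the exosome nuclease dis3 by 1.35 ± 0.22. Genes of snoRNP assembly and of the exosome thus stood on both sides.

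The genes of ribosomal proteins themselves, 74 tested by symbol, were counted beside the factors. From 4 to 5 dpf 13 rose and 0 fell, beside 7.44% and 7.42% of all tested genes. The median log2 fold change was 0.81, and 70 were higher and 0 lower at an unadjusted p under 0.05 in edgeR. From 5 dpf to 6 dpf fasted 0 rose and 0 fell, with 1 gene higher and 0 lower at an unadjusted p under 0.05 in edgeR and a median of -0.07. With feeding 0 rose and 2 fell (median -0.52), and 51 were lower and 2 higher at an unadjusted p under 0.05 in edgeR. With ethanol 0 rose and 16 fell (median -0.89), and 70 were lower and 0 higher at that limit. Beside the 16.8% of all tested genes that fell with feeding the 2 are a smaller share. Beside the 11.1% that fell with ethanol the 16 are a larger share. The matching shares of all genes at the unadjusted limit were not counted. The log2 fold changes of these genes reached 1.17 at most from 4 to 5 dpf and -1.2 at the lowest with ethanol. Scaling by library size moved the median of all genes to -0.34 and 0.45 in these comparisons. The 13 and 16 calls therefore depend on TMM scaling, and ribosomal protein genes were not counted under the other. Whether the 2 lists differ was not tested.

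Among known regulators of the pathway, Myc family genes were mostly lower in fed than in fasted larvae. The gene myca read 40.9 and 52.7 CPM at 7 dpf fasted and 12.7 and 8.05 CPM when fed (log2 fold change -2.18 ± 0.19, adjusted p = 2.21e-08), and it fell further, by 1.02 ± 0.2, in ventral against fed. Mycb and mych also fell with feeding, but their replicates were far apart, with mycb at 70.8 and 217 CPM at 5 dpf and at 120 and 45.6 CPM at 7 dpf fasted. Mycn fell and mycla rose, both at low levels. Of the partners and antagonists of Myc, mnta fell by 2.30 ± 0.21 and mxd3, at low levels, rose by 3.07 ± 0.60. Of this list of 11 genes, 2 rose and 5 fell with feeding, beside 20.7% and 16.8% of all tested genes. From 5 dpf to 6 dpf fasted, where 24 factors rose, 0 genes of this list of 11 rose. At an unadjusted p under 0.05 in edgeR 3 were higher. Mycb, mxd1 and mxd4 fell, beside 10.2% of all tested genes, and mxd1 was at low levels. The level of myca was 22.8 and 28 CPM at 5 dpf and 48.2 and 44.9 CPM at 6 dpf fasted, which did not pass the fold limit. With ethanol mnta fell by 1.45 ± 0.19 and mxd3 fell, and mych and mxd1 rose, beside 11.1% of all tested genes that fell and 11.8% that rose. Mxd3 was at low levels, with 0.643 and 0.614 CPM at 6 dpf fasted and 0.275 and 0 CPM with ethanol. Mxd1 was also low, at 0.459 and 1.28 CPM against 2.29 and 2.43 CPM with ethanol. The ethanol replicates of mych were far apart, at 53.9 and 99.1 CPM. From 4 to 5 dpf 2 of the 11 rose and 1 fell, beside 7.44% and 7.42% of all tested genes. From 6 to 7 dpf fasted 1 rose and 0 fell, beside 2.69% and 4.12% of all tested genes.

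Of the p53 targets, which are known to respond to failed ribosome assembly, cdkn1a, an inhibitor of the cell cycle, read 8.45 and 9 CPM at 6 dpf fasted and 58.9 and 61.6 CPM with ethanol (log2 fold change 2.79 ± 0.19, adjusted p = 2.22e-09). It also rose with feeding, by 2.37 ± 0.2, and fell by 1.54 ± 0.19 from 5 dpf to 6 dpf fasted. At 7 dpf fasted cdkn1a read 3.9 and 4.51 CPM, and 1 of the 7 listed targets fell from 6 to 7 dpf fasted. The gene ccng1 rose with feeding by 1.27 ± 0.12. The stress gene sesn1, which restrains TOR signalling, fell by 2.66 ± 0.17 with feeding and by 1.27 ± 0.16 with ethanol, and rose by 1.44 ± 0.17 from 4 to 5 dpf. With feeding, 2 of the 7 listed targets rose and 2 fell.

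Members of each role differed in how far they varied over the 8 groups. Among other large subunit factors gtpbp4 had an 8.8-fold range of group means and nol9 a 1.84-fold range, and in PeBoW bop1 ranged over 2.03-fold and wdr12 over 1.8-fold. Ddx21 had an 11.3-fold range, against 2.05-fold for npm1a in the same role. In UTP-A, utp4 ranged over 4.31-fold and nol11 over 1.69-fold, and in the U3 and Mpp10 role utp3 ranged over 4.73-fold and mphosph10 over 2.05-fold. Nop56 ranged over 3.85-fold against 1.9-fold for fbl, dkc1 over 2.67-fold against 1.42-fold for nop10, and polr1b over 3.52-fold against 2.01-fold for polr1c. Among the other small subunit factors nol6 ranged over 3.52-fold and rrp12 over 2-fold, and in UTP-B wdr3 over 2.78-fold and utp6 over 1.93-fold. The range of utp18 was 2.39-fold, while its libraries within 1 group differed as much, at 1.71 and 0.633 CPM with ethanol.

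In RefSeq's annotation of the assembly GRCz12tu, used for gene neighbours only, 36 of the 56 factors overlap no other gene, ddx21, gtpbp4 and nop53 among them. Another 14 overlap a protein-coding gene, including nop56, utp15, rrp9, utp20, tsr1, ppan, noc3l, rrp1 and npm1a. The libraries kept the strand of the RNA, but no source used here states the strand setting of the counting, so reads of such pairs may not have been told apart. The genes nop56, nop58, dkc1, nop2 and ncl hold genes of snoRNAs within their span.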

How the data were processed

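Per the labels' protocols, RNA came from dissected livers and libraries were made with a strand-keeping kit. The authors deposited raw counts per gene; per the submitters' processing notes, reads were aligned with HISAT2 to GRCz11 and counted with featureCounts, with no version or setting stated in the sources used here. Between 70.3% and 77.8% of counts from 1 to 50 were even, against 50.9% to 56.2% of counts over 1000, and the tests were therefore also run with counts halved.

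The test was the quasi-likelihood F test of edgeR 4.0.16 under R 4.3.3 (robust, TMM, default filter by group) in 1 model of all 16 libraries, with 8 residual degrees of freedom and Benjamini-Hochberg adjustment over 17799 genes. TMM factors ran from 0.837 to 1.3. Standard errors are the log2 fold change divided by the root of the F value. The share of all genes at an unadjusted p under 0.05 was not counted for any comparison. With 2 libraries per group, an exact permutation test could not give a p below 0.333 for a single gene. The code was tested on simulated data. Members and lists were chosen with earlier results of these data known. Genes named are, per comparison, the 5 called members of smallest p in each direction and, per role, those of largest and smallest range. Per wider list they are the 2 called genes of smallest p in each direction. Per regulator list they are the 2 with most counts and most of the called genes. Of the cell type lists only fabp10a and tfa are named, as examples. Other members are named where their role is described. Alternatives were RLE scaling, library size scaling, no filter, DESeq2 1.42.0, counts halved, a replicate block and leaving out each library. A planned search of promoters for a motif was not run.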

Additional observations from a re-analysis of the deposited data

How the results depend on the processing

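Counts of factors called kept within 1.5 times of the reported value under RLE scaling, no filter on low counts, DESeq2, counts halved and the replicate block, except that 1 factor in place of 2 rose with feeding under RLE scaling, DESeq2 and counts halved. With scaling by library size, 25 in place of 8 factors fell from 4 to 5 dpf, where the median of all genes was -0.34, 4 rose with feeding (median of all genes 0.19), and 5 rose and 2 fell with ethanol (median of all genes 0.45). Leaving out each library in turn gave 3 to 10 factors that fell from 4 to 5 dpf, 2 to 13 that fell from 6 to 7 dpf fasted, 1 to 3 that rose with feeding, and 0 to 2 that rose and 3 to 7 that fell with ethanol. For 6 dpf fasted against 5 dpf the range over all settings was 18 to 30 factors that rose. Each lost call fell below the fold limit while its adjusted p, 0.0304 at most, stayed under 0.1. Under every setting, 6 of 11 called factors from 4 to 5 dpf were called, as were 16 of 24 from 5 to 6 dpf, 1 of 5 from 6 to 7 dpf, 7 of 12 with feeding and 2 of 5 with ethanol. No called factor changed direction. With the replicate block 24 factors rose from 5 dpf to 6 dpf fasted, as without it; the labels do not say that replicate numbers pair samples, and same-numbered libraries correlated between -0.125 and 0.139 in their deviations, so no pairing was used. Depth limits utp18 most, with 18 counts in its lowest library, followed by imp3 with 53.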
